A study of Rattus norvegicus with 16 samples.

Results

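Ovaries of BRCA1+/- rats injected with olaparib were compared with ovaries of BRCA1+/- rats given vehicle, across all genes on a whole-genome rat array. The arrays were taken by their labels, 4 with olaparib and 4 with vehicle, and are 8 of the 16 arrays of the study. All 8 animals were females of the Sprague-Dawley stock Jcl:SD and carried the BRCA1+/- genotype, so the controls share the altered Brca1 copy. Olaparib was given under the skin at 50 mg/kg once a day for 14 days, starting at 3 weeks of age, and the ovaries were excised 24 h after the last dose. The composition of the vehicle, its injection scheme, the age of the vehicle animals, the kind of Brca1 alteration and the cycle stage are not stated in the labels used here. The other 8 arrays are wild-type Jcl:SD ovaries, 4 with olaparib and 4 with vehicle, and serve here for the shared estimate of spread and for values set beside those of BRCA1+/-.

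Olaparib blocks the enzymes PARP1 and PARP2, which attach chains of ADP-ribose at breaks in DNA and help to repair single-strand breaks. When PARP is blocked or trapped on DNA, dividing cells meet more lesions at replication forks, and these are repaired by homologous recombination, for which BRCA1 is needed. The ovary holds a fixed reserve of resting oocytes, known for their sensitivity to DNA damage, beside granulosa cells that divide fast in growing follicles, steroid-making theca cells, vessels and stroma.

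The labelled tissue was checked against marker genes. Of 29 listed markers of oocytes in growing follicles 25 were well above background on all 8 arrays, as were 11 of 11 of granulosa cells and 7 of 7 of theca cells. For oocytes of small follicles 8 of 13 passed the filter on dim probes, and Ddx4, Sycp3, Sycp1, Tex101 and Stra8 did not. Markers of oviduct and ciliated epithelium differed far more between arrays than between treatments. Their score, the mean log2 signal of the list after centring each gene over the 16 arrays, was -1.19, -2.19, 3.60 and 1.35 on vehicle replicates 1 to 4 and -1.79, -1.39, 2.56 and 1.57 on olaparib replicates 1 to 4. The 4 high arrays were replicates 3 and 4, hybridised on slide 2, and the 4 low ones were replicates 1 and 2, on slide 1. Of the 25 genes of this list 14 were well above background on all 8 arrays. In wild-type ovaries the score was -2.33 to -1.08 with vehicle and 3.39, -1.61, 3.17 and -0.65 with olaparib, and the median difference of the list was 2.48, so each wild-type value below stands beside an oviduct signal that differed with treatment. Its part in the wild-type differences was not tested. The leading principal component of the 8 arrays held 55.2% of the variance and split them the same way, with values of -69.6 to -42.8 on slide 1 and 26.1 to 105.5 on slide 2. Pairs of arrays correlated at a Pearson r of 0.916 to 0.987. Slide and replicate number cannot be told apart from the oviduct score here, so the lists described at length below are also given within each slide.

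Across all genes, no gene passed the test. Signals are given on the log2 scale relative to the 75th percentile of each array (the log2 signal), and a difference is olaparib minus vehicle on that scale. Limma called 0 of 20227 genes (0%) at a Benjamini-Hochberg adjusted p under 0.05, and the lowest adjusted p was 1. Before adjustment 237 genes had a p under 0.05, and chance alone would give 1011. Of these, 108 (0.534%) were higher with olaparib and 129 (0.638%) lower. The 4 olaparib arrays lay above all 4 vehicle arrays for 101 genes (0.499%) and below them for 123 (0.608%), and 69 of these 224 also had an unadjusted p under 0.05. A difference above 0 was found for 10769 genes (53.2%). The median difference was 0.02 and its median size 0.16, with 118 genes above 1 and 216 below -1. The median half-width of the 95% interval was 0.63, the size at which a typical gene reaches an unadjusted p of 0.05 with 4 arrays a group. A call after adjustment takes a larger difference, and even Odaph at -3.53 was not called. Differences above 0.63 can therefore be missed as well as smaller ones. With the replicate number as a block the count at an unadjusted p under 0.05 was 487, with 272 higher and 215 lower, and limma again called 0. With that block and the 8 BRCA1+/- arrays alone, a setting chosen after seeing the data, it was 1274 (610 higher and 664 lower), above the 1011 of chance, and the lowest adjusted p was 0.751. With the 75th percentile taken only over probes well above background on all 16 arrays, the split was 85 higher and 199 lower. The main count also moved with single arrays. Shifts of over 1.5 times came from BRCA1+/- arrays, and with any 1 wild-type array left out the count was 211 to 321. It was 449 with vehicle replicate 2 left out, and 143, 401, 455 and 149 with olaparib replicates 1, 2, 3 and 4 left out in turn. In wild-type ovaries the same comparison had 876 genes at an unadjusted p under 0.05. The interaction, which sets the difference in BRCA1+/- ovaries against the wild-type one, had 0 called genes, 695 at an unadjusted p under 0.05 and a lowest adjusted p of 0.968.

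**Figure D1:**
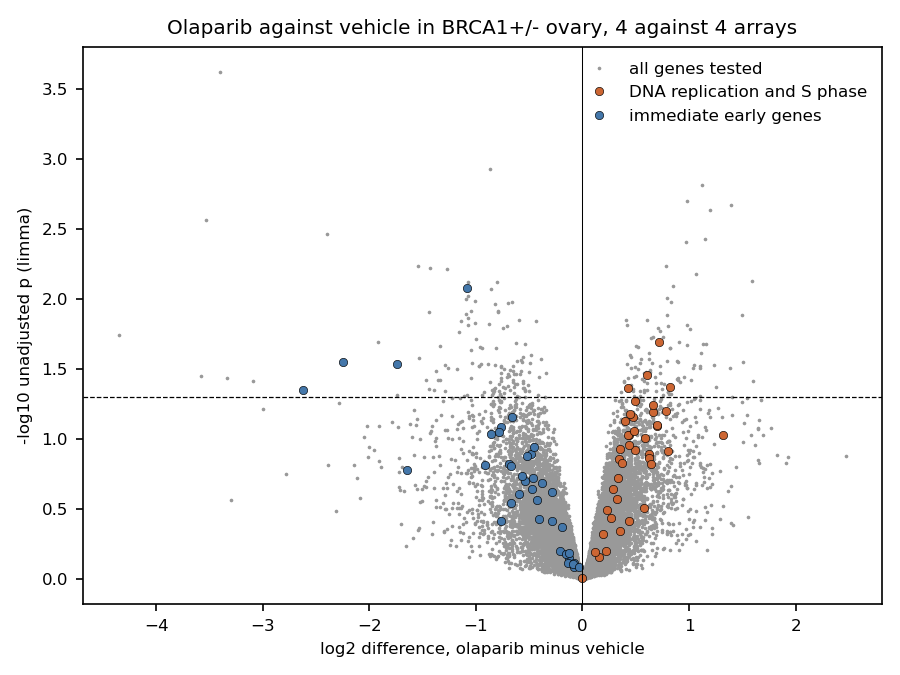
Log2 difference of every tested gene (x axis, olaparib minus vehicle) against the -log10 of its unadjusted limma p (y axis). Grey points are the 20227 genes, orange points the DNA replication list and blue points the immediate early list, and the dashed line marks an unadjusted p of 0.05. The orange points lie at or to the right of 0 and the blue points to the left, most of them under the line.

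Brca1, the gene of the genotype, had a log2 signal of -0.95, -0.78, -1.29 and -1.44 on the vehicle arrays (replicates 1 to 4) and of -0.50, -0.82, -1.18 and -0.37 on the olaparib arrays. The groups overlapped, and the difference was 0.40 (95% interval -0.19 to 0.98, two-sided exact permutation p 0.143). Wild-type means were -0.44 with vehicle and -0.56 with olaparib. The array files place its probe on chromosome 10 at 90512623 to 90512682, in coordinates that the headers call rn4 and that were not checked against a genome. Whether this probe reads the altered copy is not known here.

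No difference was called for the drug's targets at the RNA level, and the intervals of Parp2 and Parp3 are wide. Parp1, the main DNA-break sensor, was at 3.81 to 4.23 with vehicle and 3.99 to 4.33 with olaparib, a difference of 0.11 (95% interval -0.23 to 0.44). For Parp2, the second target, the difference was 0.23 (95% interval -0.38 to 0.84), and for Parp3, a relative that acts at double-strand breaks, 0.56 (95% interval -0.31 to 1.43). Of 21 tested genes of the PARP family and ADP-ribose turnover, 14 had a difference above 0, with a median of 0.14. Of them 1 was lower at an unadjusted p under 0.05, against 0.638% of all genes lower. That gene was Tnks, which encodes tankyrase, a PARP that acts at telomeres and in Wnt signalling, with a difference of -0.54 ± 0.24 (SE). Tiparp, a mono-ADP-ribosyl transferase induced by aryl hydrocarbon receptor ligands, differed by -0.80 ± 0.47, and its other probes gave -0.78 and -1.23.

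Of the 12 genes with the smallest p on the higher side, those acting in replication, repair, transcription or hormone signalling are given first. The others, of varied roles, follow below, and a shared role was not tested. Gmnn encodes geminin, which holds the licensing factor CDT1 in check after replication has begun. It was at -1.41, -1.52, -1.95 and -1.57 with vehicle and -0.28, -1.38, -1.06 and -0.32 with olaparib. All 4 olaparib arrays were above all vehicle arrays, by 0.85 ± 0.28 (SE, 1.80-fold), while the wild-type difference was 0.02. Nsmce2, a SUMO ligase of the SMC5/6 complex that acts in recombination repair, differed by 0.78 ± 0.24 without overlap, but its probe was well above background on only 2 of the vehicle arrays. Mybl1, a transcription factor of the MYB family, differed by 0.61 ± 0.22 without overlap, with 0.62 on slide 1 and 0.60 on slide 2. Fst, encoding follistatin, which binds and blocks activin, was at 4.64, 5.09, 4.34 and 4.59 with vehicle and 5.56, 5.45, 4.86 and 5.62 with olaparib. Its groups overlapped through olaparib replicate 3 alone, and the difference was 0.71 ± 0.26 (1.63-fold), with 0.85 from its other probe.

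Homer3, a scaffold protein that binds glutamate receptors, had the largest difference on the higher side among genes measured on all 8 arrays without overlap. It was at 0.49, 0.18, 0.28 and 0.81 with vehicle and 2.73, 2.26, 2.03 and 1.09 with olaparib, a difference of 1.59 ± 0.51 (3.00-fold). Its other probes gave 0.84 and 0.23, so the probes disagree on its size. Mia differed by 1.51 ± 0.62, Defb29, a beta-defensin, by 1.20 ± 0.32, Sbk1, a protein kinase, by 2.14-fold, Gal, the neuropeptide galanin, by 1.01 ± 0.37 and Slc7a3, a transporter of cationic amino acids, by 0.97 ± 0.50, all without overlap. The second Sbk1 probe gave a smaller difference of 0.66. In wild-type ovaries the differences of Homer3, Defb29, Sbk1, Gal and Slc7a3 lay below 0, from -0.74 to -0.29, and that of Mia was 0.02. Each of these genes had a wild-type vehicle mean nearer to the BRCA1+/- olaparib mean than to the BRCA1+/- vehicle mean. In that order the means were 2.01, 2.03 and 0.44 for Homer3, and 3.79, 3.54 and 2.53 for Gal. The remaining genes of smallest p were Tvp23a at 1.39 ± 0.37, well above background on only 1 vehicle array, Mro at 1.15 ± 0.33, Slc26a7, an anion transporter, at 0.98 ± 0.36, Acot4, an acyl-CoA thioesterase, at 0.83 ± 0.28, Ubap1l at 0.79 ± 0.28, whose other, dim probe gave -0.04, and Tm9sf1 at 0.42 ± 0.15.

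**Figure D2:**
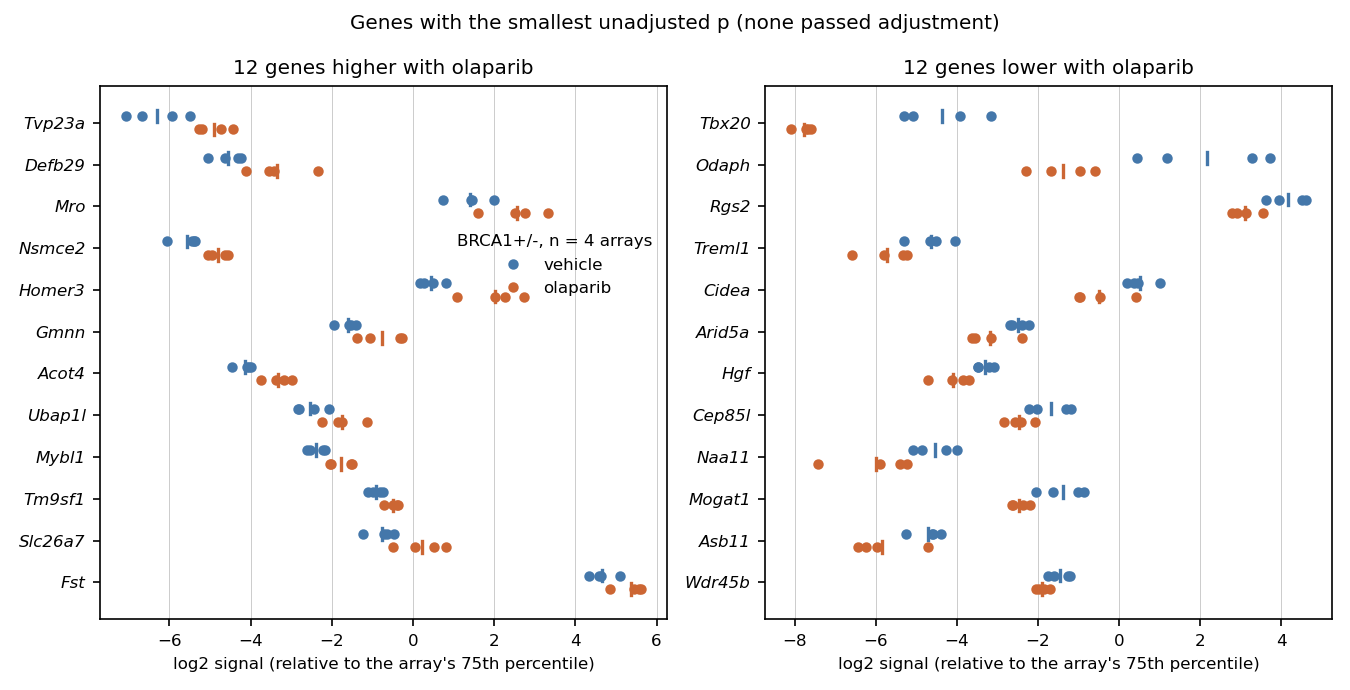
Log2 signal (x axis, relative to the array's 75th percentile) of the 12 genes with the smallest unadjusted p in each direction, by array. Blue points are the 4 vehicle arrays, orange points the 4 olaparib arrays and short bars the group means. Tbx20 and Odaph show the widest gaps, and for Mro, Ubap1l, Slc26a7 and Fst a single olaparib array reaches into the vehicle range.

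On the lower side the widest gaps were those of Tbx20 and Odaph. Tbx20, a T-box transcription factor known from heart development, was at -3.16, -5.31, -3.93 and -5.07 with vehicle and between -8.09 and -7.61 with olaparib. It was well above background on all 4 vehicle arrays and on no olaparib array, so its signal was at least 2.40-fold lower with olaparib. Without WT olaparib replicate 4, on which it was at -4.18 against -7.85 to -7.37 on the other 3 arrays of that group, the limma adjusted p of Tbx20 was 0.0482, and over all alternatives its adjusted p lay between 0.0482 and 1. It was the only gene called under any alternative. Tbx20 passed the filter on dim probes only through the BRCA1+/- vehicle group, where it is high, and the p sets that group against values at background, so it supports nothing beyond the bound. Wild-type means of Tbx20 were -7.07 with vehicle and -6.80 with olaparib, both nearer to the BRCA1+/- olaparib arrays than to the vehicle ones. Odaph, named for a role in tooth enamel, was at 3.73, 0.44, 1.18 and 3.29 with vehicle and -2.29, -0.96, -0.58 and -1.67 with olaparib. Its difference was -3.53 ± 0.98, and the wild-type means were -2.30 and -1.53.

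The other named genes of the lower side had varied roles. Rgs2, which shortens signalling through G proteins and is induced in the follicle by luteinising hormone, was at 4.62, 3.63, 3.95 and 4.51 with vehicle and 2.78, 3.55, 2.92 and 3.14 with olaparib. The groups did not overlap, the difference was -1.08 ± 0.35, and its second probe gave -0.77. The wild-type vehicle mean of Rgs2 was 3.23, against BRCA1+/- means of 4.18 with vehicle and 3.10 with olaparib. Hgf, hepatocyte growth factor, differed by -0.79 ± 0.28 without overlap, and by -0.72 in wild-type. Its second probe gave -0.35. Cidea, a lipid-droplet protein of adipose cells, differed by -1.01 ± 0.34 with an overlap through olaparib replicate 2, and Mogat1, which makes diacylglycerol, by -1.07 ± 0.38 without overlap. Il1rn, the antagonist of the interleukin-1 receptor, differed by -1.62 ± 0.86 and Hoxc9, a homeobox gene, by -1.40 ± 0.89, both without overlap but with unadjusted p of 0.0787 and 0.136. Treml1, a platelet receptor also among those of smallest p, was at least 1.82-fold lower with olaparib. It was well above background on 3 vehicle arrays and no olaparib array. Naa11 differed by -1.44 ± 0.50, well above background on 2 vehicle arrays and 1 olaparib array. Asb11 differed by -1.14 ± 0.41, well above background on all 4 vehicle arrays but only 1 olaparib array. Of the BRCA1+/- groups only vehicle met the filter for Asb11, so its p sets that group against values mostly at background. Wild-type means of Asb11 were -5.63 with vehicle and with olaparib, near its BRCA1+/- olaparib mean of -5.84. The rest of smallest p were Cep85l at -0.79 ± 0.28, Arid5a at -0.70 ± 0.24 and Wdr45b at -0.44 ± 0.16, whose other probe gave -0.02.

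A set of 39 gene lists, 22 of pathways and 17 of cell markers, was used to describe groups of genes. No member of any list passed over all genes. Each list is given by its count above 0 and its median difference, to be read against 53.2% and 0.02 over all genes. Members with an unadjusted p under 0.05 are to be read against 0.534% of all genes higher and 0.638% lower. Members without overlap are to be read against 0.499% higher and 0.608% lower. These are descriptions, since genes of a list vary together and the number of animals is 4 a group. In whole ovaries, fewer cells of a type and less RNA per cell cannot be told apart.

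Genes of DNA replication and S phase formed the list with the highest median. All 40 tested genes had a difference of 0 or above, the largest being 1.32 for Tk1, and the median was 0.45. Of them 4 had an unadjusted p under 0.05, all higher, against 0.534% of all genes, and 3 did not overlap, against 0.499%. The median was 0.32 on slide 1, with 35 of 40 above 0, and 0.62 on slide 2, with 39 of 40, and it ranged from 0.34 to 0.58 with single arrays left out. On slide 1 the oviduct scores were low throughout, at -2.19 to -1.19, and the part of oviduct content in these medians was not tested. In wild-type ovaries the median was -0.17, with 8 of 40 above 0.

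Mcm3, a subunit of the MCM2-7 helicase that opens DNA at origins, was at 2.56, 2.51, 2.21 and 2.22 with vehicle and 3.51, 2.77, 2.56 and 3.55 with olaparib. Olaparib replicates 1 and 4 were about alike and clearly the highest, and replicate 3 reached the top vehicle array. The difference was 0.72 ± 0.28, while a second Mcm3 probe gave 0.14. The other MCM subunits differed by 0.35 (Mcm2), 0.44 (Mcm4), 0.66 (Mcm5), 0.78 (Mcm6) and 0.34 (Mcm7). Of the genes that supply nucleotides, Rrm2 and Rrm1, the subunits of ribonucleotide reductase, differed by 0.82 ± 0.37 and 0.43 ± 0.19, and Tk1, thymidine kinase, by 1.32 ± 0.73. Second probes gave 0.69 for Rrm2 and 0.19 for Rrm1, so the Rrm1 probes disagree on its size. Tk1 was at 2.62, 1.76, 1.69 and 1.80 with vehicle and 4.65, 2.69, 2.04 and 3.75 with olaparib. Among the clamp loaders Rfc4 differed by 0.61 ± 0.26, and Rfc2 at 0.40 ± 0.21 and Rfc5 at 0.43 ± 0.24 did not overlap, nor did Orc6 of the origin recognition complex, at 0.47 ± 0.24. Cdt1, the licensing factor that geminin binds, differed by 0.62 ± 0.39. Members of this list other than Mcm3, Rfc4, Rrm2, Rrm1 and Mcm2 were picked for naming after their values were seen.

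The list's arrays were not alike. Its score was -0.05, -0.18, -0.54 and -0.52 on vehicle replicates 1 to 4 and 0.45, -0.02, -0.30 and 0.51 on olaparib replicates 1 to 4. Olaparib replicates 1 and 4 stood above every vehicle array, whereas replicate 2 lay just above the highest of them and replicate 3 within their range. Each olaparib array was above the vehicle array of its own replicate number. On wild-type vehicle replicates 1 to 4 the replication score was 0.56, 0.51, -0.43 and 0.03.

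Many replication genes are known targets of E2F factors, which bind short sites near the start of transcription. The promoter windows of Mcm3 and Mcm5, 2 MCM genes that each hold 2 such sites, are shown 5′ to 3′ on the gene's strand, a stretch of 300 bases around the start of transcription, as given by RefSeq for build GRCr8. Capitals mark the letters TTTGGCGC, TTTCCCGC, TTTCGCGC or TTTGCCGC on either strand.
Mcm3 (chr9:30733697-30733996, minus strand): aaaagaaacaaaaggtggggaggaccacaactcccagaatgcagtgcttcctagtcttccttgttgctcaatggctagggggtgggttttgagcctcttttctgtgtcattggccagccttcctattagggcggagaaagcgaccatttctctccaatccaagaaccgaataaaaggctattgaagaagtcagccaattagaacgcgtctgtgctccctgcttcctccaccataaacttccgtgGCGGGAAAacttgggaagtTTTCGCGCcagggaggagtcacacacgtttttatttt
Mcm5 (chr19:13488563-13488862, plus strand): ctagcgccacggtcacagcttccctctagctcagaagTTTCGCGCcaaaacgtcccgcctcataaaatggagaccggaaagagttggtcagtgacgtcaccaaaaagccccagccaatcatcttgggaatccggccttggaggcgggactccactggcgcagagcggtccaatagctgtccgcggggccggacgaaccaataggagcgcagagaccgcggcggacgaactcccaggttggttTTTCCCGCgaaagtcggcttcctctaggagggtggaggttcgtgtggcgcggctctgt
Of the 40 tested genes 30 had a window in the RefSeq table, and 13 of these (43.3%) held at least 1 of the 4 motifs. In the first listed window of all 27457 genes the share was 2.25%, and it was 2.78% of 36 windows for mitosis genes and 21.9% of 32 for homologous recombination genes. Rrm2 had no window in the table. A match describes the sequence and shows neither binding nor a cause.

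Of 42 tested mitosis genes 39 were above 0, with a median of 0.32 (0.20 on slide 1 and 0.48 on slide 2). At an unadjusted p under 0.05 there were 0 higher and 1 lower, Aurka, against 0.534% and 0.638% of all genes. Mki67, the marker of cycling cells, differed by 0.55 ± 0.34, Spc24, a kinetochore subunit, by 0.50 ± 0.30 and Mybl2, an activator of mitotic genes, by 0.46 ± 0.31. Cdk1, the kinase that drives entry into mitosis, differed by 0.25 ± 0.34. Aurka, the centrosomal kinase Aurora A, went the other way. It was at 4.09, 3.05, 2.54 and 3.44 with vehicle and 2.23, 2.75, 2.07 and 2.18 with olaparib, a difference of -0.97 ± 0.41, with -1.08 and -0.87 within the slides. The mitosis score was 0.39, -0.33, -0.64 and -0.38 with vehicle and 0.23, 0.17, -0.59 and 0.41 with olaparib, and vehicle replicate 1 lay among the high olaparib arrays. The median was 0.54 without vehicle replicate 1 or olaparib replicate 3, 0.18 without vehicle replicate 3 and 0.20 without olaparib replicate 4. In wild-type ovaries it was -0.24, with 4 of 42 above 0.

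The DNA repair lists had smaller medians above 0. Those of Brca1 partners and base excision repair were like the medians of NAD synthesis and consumption (0.14) and heat shock proteins (0.12). Of 17 tested genes of Brca1 and its partners 15 were above 0, with a median of 0.14 (0.11 and 0.26 within the slides). Bard1, the binding partner of BRCA1, differed by 0.41 ± 0.26, Rnf8, a ubiquitin ligase at breaks, by 0.32 ± 0.22, and Rbbp8, which starts the resection of DNA ends, by 0.22 ± 0.16 without overlap (picked after its values were seen). Other Rnf8 probes gave 0.18 and 0.07. In homologous recombination and Fanconi repair 32 of 40 were above 0, with a median of 0.20. Gen1, a resolvase of recombination junctions, differed by 0.62 ± 0.26, Rad54l, a motor protein of recombination, by 0.51 ± 0.24, and Eme1, a junction nuclease subunit, by 0.59 ± 0.31. In base excision and single-strand break repair 20 of 24 were above 0, with a median of 0.09. Its 4 genes of smallest p, Lig1, Fen1, Pcna and Pold1, also serve in copying the lagging strand. Lig1, DNA ligase I, was at 4.19, 4.33, 4.15 and 4.14 with vehicle and 4.85, 4.59, 4.40 and 5.04 with olaparib, without overlap and with a difference of 0.52 ± 0.22, and Fen1, Pcna and Pold1 differed by 0.54 ± 0.28, 0.46 ± 0.24 and 0.42 ± 0.22.

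**Figure D3:**
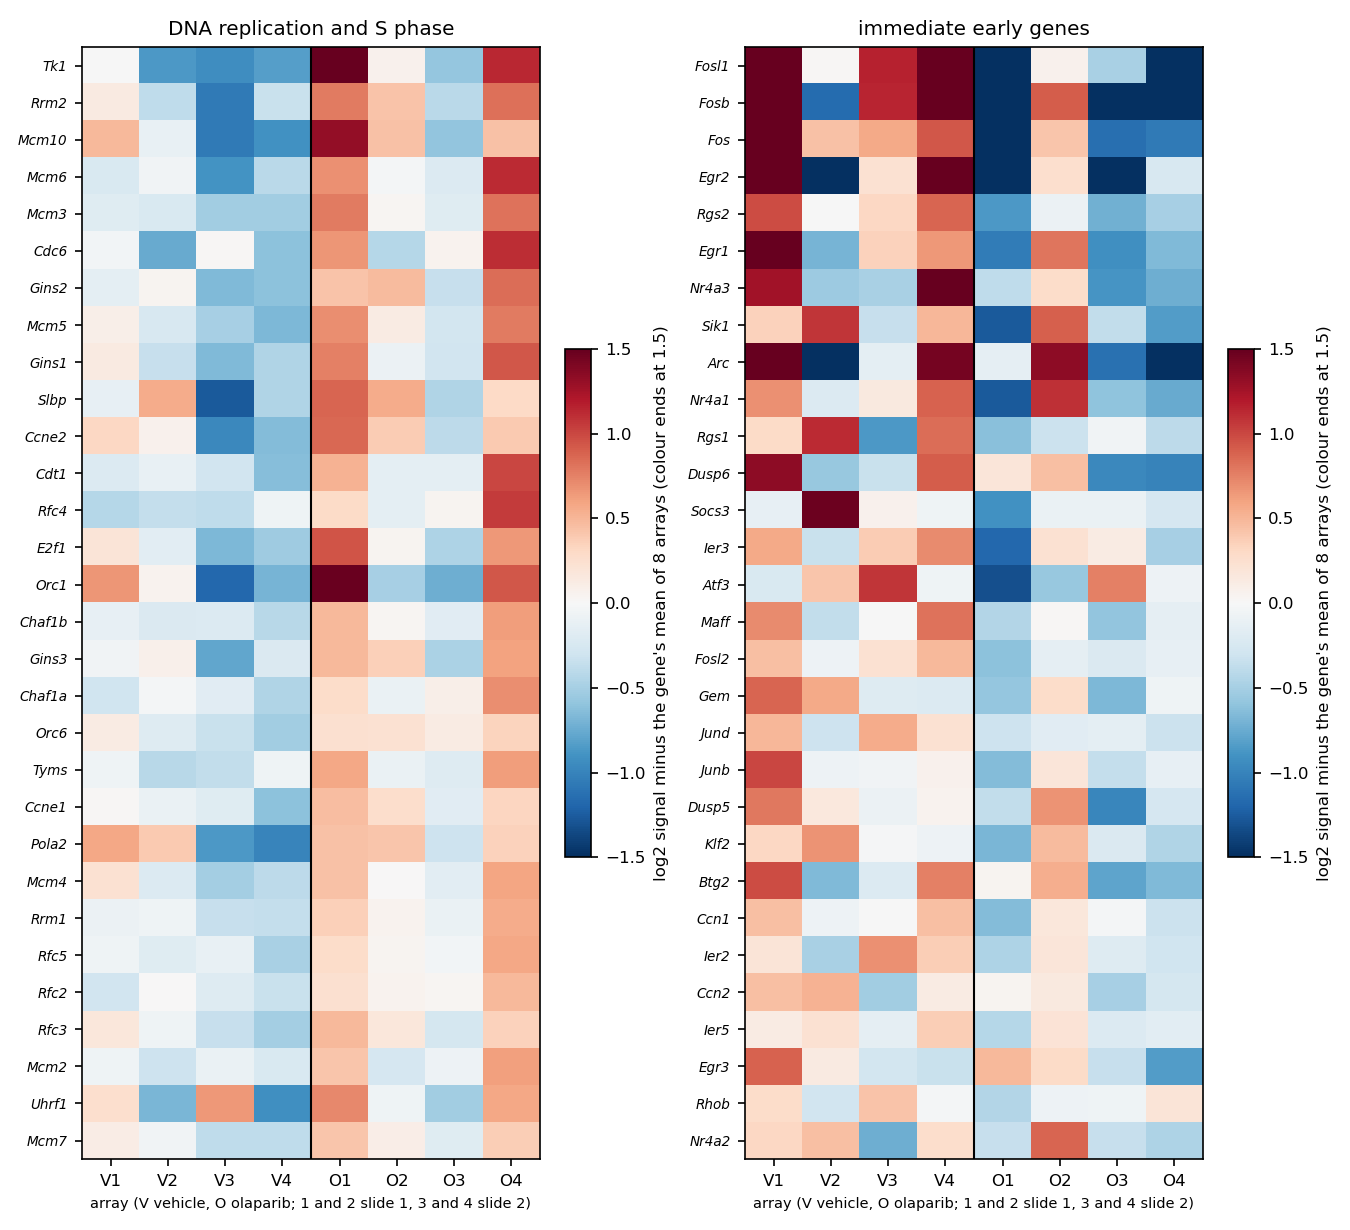
Log2 signal of the 30 genes of largest difference in the DNA replication list (left) and the immediate early list (right) on the 8 BRCA1+/- arrays, minus the gene's mean over those arrays. Columns V1 to V4 are vehicle and O1 to O4 olaparib replicates, and colours end at 1.5 in either direction. Replication genes are highest on O1 and O4, and Fos family genes are lowest on O1, O3 and O4, while O2 is near or above the vehicle arrays for several genes of the right panel.

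Immediate early genes, switched on within minutes by growth factors, hormones or handling stress, had a difference below 0 in all 37 tested genes, with a median of -0.48. Of them 4 had an unadjusted p under 0.05, against 0.638% of all genes lower, and 3 did not overlap, against 0.608%. The median was -0.41 on slide 1 and -0.40 on slide 2, with 4 genes above 0 on each, and ranged from -0.67 to -0.33 with single arrays left out. In wild-type ovaries it was 0.08, with 22 of 37 above 0.

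Fos, a subunit of the AP-1 transcription factor, was at 0.48, -0.62, -0.50 and -0.13 with vehicle and -2.77, -0.65, -2.19 and -2.12 with olaparib. Olaparib replicate 2 sat just under the lowest vehicle array and the other 3 far below. The difference was -1.74 ± 0.72 (3.34-fold lower). In wild-type ovaries Fos differed by 1.36, from a mean of -2.13 with vehicle to -0.78 with olaparib. The wild-type olaparib arrays split, at -2.59, -2.19, 0.95 and 0.73, against -2.75 to -1.48 with vehicle. The interaction of Fos was -3.10 (unadjusted p 0.00848, limma's adjusted p 0.968). It contains the BRCA1+/- difference by which Fos was picked, so its p is no separate support. Fosb was at -0.50, -4.40, -2.10 and -1.48 with vehicle and -5.19, -2.34, -4.90 and -5.05 with olaparib, a difference of -2.25 ± 0.92, and vehicle replicate 2 lay below olaparib replicate 2. Fosl1, another FOS relative, differed by -2.62 ± 1.19 and Fosl2 by -0.54 ± 0.41, the latter without overlap. Jund, the AP-1 subunit with the highest signal in the list, differed by -0.48 ± 0.29, and Jun by -0.13 ± 0.33. Egr1 and Egr2, zinc-finger factors induced by growth factor and hormone signals, differed by -0.91 ± 0.60 and -1.65 ± 1.14, and Nr4a1 and Nr4a3, orphan nuclear receptors, by -0.76 ± 0.41 and -0.86 ± 0.48. Ier3 differed by -0.66 ± 0.34. Fosl2, Jun, Egr1, Egr2, Nr4a1, Nr4a3 and Ier3 were picked for naming after their values were seen.

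The immediate early score was 0.82, 0.18, 0.15 and 0.63 with vehicle and -0.51, 0.42, -0.28 and -0.37 with olaparib. Olaparib replicate 2 was the exception, above vehicle replicates 2 and 3. On wild-type vehicle replicates 1 to 4 this score was -0.53, -0.15, -0.03 and -0.18, below every BRCA1+/- vehicle array. The time from death to freezing of each ovary is not stated in the labels used here, and its part in these values was not tested.

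Immediate early promoters often hold a CArG box, bound by serum response factor, or a cyclic AMP response element. The window of Egr2 is shown because it holds a CArG box, in capitals, upstream of the start.
Egr2 (chr20:21054392-21054691, minus strand): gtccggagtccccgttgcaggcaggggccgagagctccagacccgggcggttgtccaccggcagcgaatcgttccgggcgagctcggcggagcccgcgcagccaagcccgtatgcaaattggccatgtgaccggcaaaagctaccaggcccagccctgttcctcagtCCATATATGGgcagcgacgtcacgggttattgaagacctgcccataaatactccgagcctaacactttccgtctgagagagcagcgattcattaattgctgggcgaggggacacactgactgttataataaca
Of 26 immediate early windows in the RefSeq table (GRCr8), 5 (19.2%) held a CArG box and 5 (19.2%) the element TGACGTCA, which reads alike on both strands. Over all 27457 genes the shares were 1.64% and 1.91%. Fos had no window in the table.

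**Figure D4:**
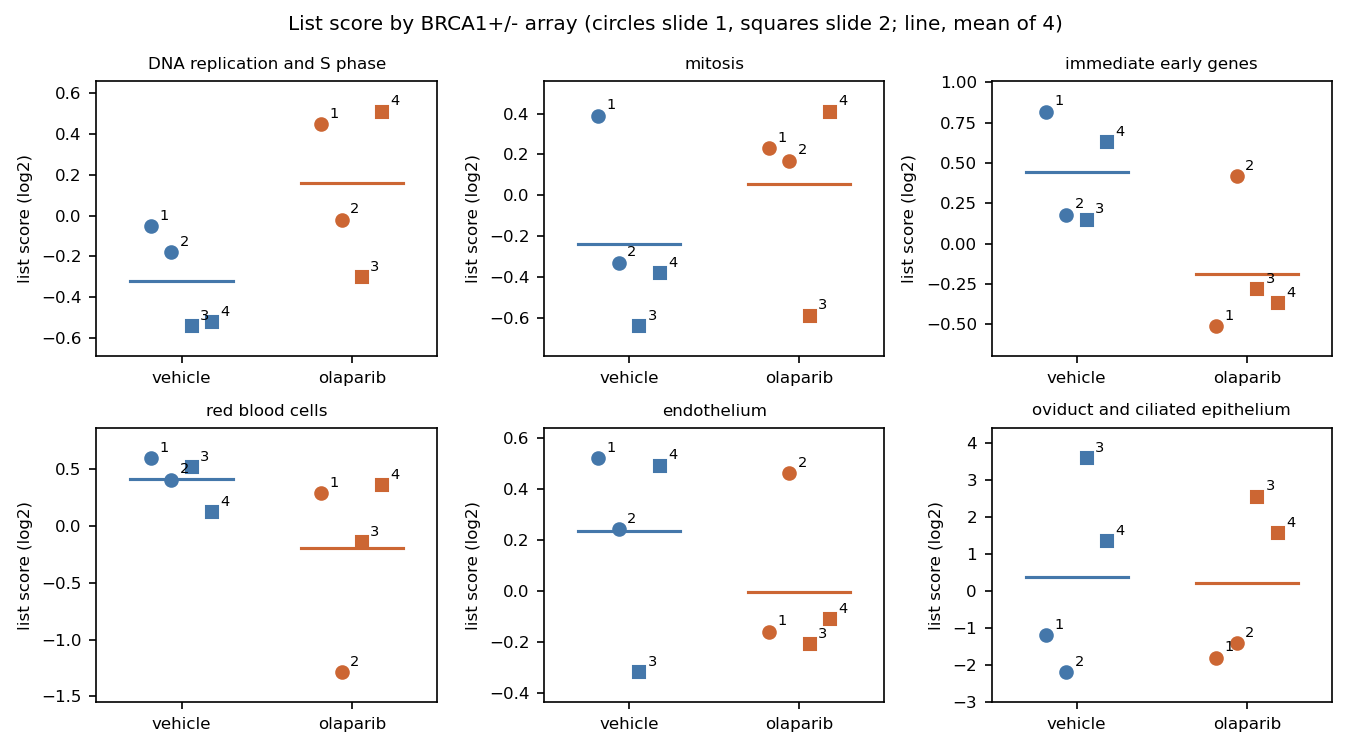
Score (y axis, log2, mean of the list's genes centred over the 16 arrays) of 6 gene lists on each BRCA1+/- array. Circles are slide 1, squares slide 2, digits the replicate number and lines the group means. Replication scores of olaparib replicates 1 and 4 lie above all vehicle arrays, the red blood cell score of olaparib replicate 2 lies far down at -1.29, and the oviduct scores split by slide and not by treatment.

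Of 25 genes of granulosa identity, AMH and inhibin 17 were above 0, with a median of 0.13. Of them 2 were higher at an unadjusted p under 0.05, against 0.534% of all genes higher. These were Fst, given above, and Inhbb, the beta B subunit of inhibin and activin. Inhbb was at 5.32, 5.05, 3.81 and 5.35 with vehicle and 6.28, 6.20, 4.88 and 5.71 with olaparib, a difference of 0.89 ± 0.36 in which only olaparib replicate 3 reached into the vehicle range. Inha, the inhibin alpha subunit and the brightest of the list, differed by 0.21 ± 0.26. Amh, made by granulosa cells of small growing follicles and used as a gauge of their number, was at 5.40, 5.13, 5.59 and 4.54 with vehicle and 4.29, 4.80, 4.39 and 4.71 with olaparib, a difference of -0.62 ± 0.49, and was picked after its values were seen. Nr5a2, a nuclear receptor needed for ovulation, differed by 0.60 ± 0.36 and Hsd17b1, which makes oestradiol, by 0.42 ± 0.26.

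Genes of oocytes in growing follicles were above 0 in 5 of 25, with a median of -0.21. Bmp15, a growth factor of the oocyte, differed by -0.47 ± 0.52 and Padi6, of the oocyte's subcortical complex, by -0.38 ± 0.41. The list's score was 0.83, 0.18, 0.36 and -0.50 with vehicle and 0.12, 0.38, -0.22 and -0.14 with olaparib, so the groups overlapped widely. Without vehicle replicate 1 the median of oocytes of growing follicles was 0.03, with 15 of 25 above 0. In the list of the oocyte damage checkpoint and BCL2 family 8 of 18 were above 0, with a median of -0.06. Tp63, which encodes the checkpoint factor TAp63 of resting oocytes, differed by -0.44 ± 0.37, Apaf1, of the apoptosome, by -0.42 ± 0.28 and Bmf, a death-promoting BCL2 relative, by -0.46 ± 0.50. Other probes gave 0.08 for Tp63 and -0.10 for Apaf1, so their probes disagree, and -0.49 and -0.99 for Bmf. Among 25 genes of primordial follicle activation 12 were above 0, with a median of -0.01, and Kit, the receptor through which granulosa cells signal to oocytes, differed by -0.68 ± 0.38.

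Genes of p53 response were above 0 in 12 of 26, with a median of -0.04. Plk2, a stress-induced kinase, differed by -1.34 ± 0.59 and Aen, a nuclease induced by p53, by 0.48 ± 0.22, with the nearest arrays of the groups both at 3.07, so the 2 members with an unadjusted p under 0.05 went opposite ways. Pmaip1, which encodes the death factor NOXA, differed by -0.73 ± 0.44 and Cdkn1a, encoding the cell cycle brake p21, by -0.51 ± 0.53.

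Of 22 genes of theca and steroid synthesis 13 were above 0, with a median of 0.07, and 7 theca cell markers had a median of -0.12. For 18 corpus luteum genes the median was 0.01, and Mro, given above, was the 1 member with an unadjusted p under 0.05. Cyp11a1, the enzyme that makes pregnenolone, was the brightest at 8.97 with vehicle and 8.99 with olaparib on average. Cyp17a1, the androgen-making enzyme of theca cells, was at 5.11, 5.22, 3.70 and 4.31 with vehicle and 4.77, 5.70, 4.61 and -1.93 with olaparib, where replicate 4 alone sets the difference of -1.30 ± 1.70. Lhcgr, the receptor of luteinising hormone, was also lowest on olaparib replicate 4, at -2.58 against -0.40 to 0.63 on the other olaparib arrays. Areg, an ovulatory growth factor, differed by -1.79 ± 0.94 and Ptx3, a protein of the ovulated cumulus matrix, by -0.63 ± 0.39, within a list of LH-induced genes in which 9 of 19 were above 0 and the median was -0.27. Rgs2, given above, was the 1 member of that list with an unadjusted p under 0.05. Without olaparib replicate 1 or 3 that median was 0.05 or 0.02. Cholesterol synthesis genes were above 0 in 19 of 23, with a median of 0.22, but this rests on olaparib replicate 1, whose score was 1.13 against -0.49 to 0.02 on the other olaparib arrays. Without it the median of cholesterol synthesis was -0.14, with 7 of 23 above 0.

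Blood and vessel markers had medians below 0, and none of their genes passed. Of 19 red blood cell genes 1 was above 0 and the median was -0.55, with -0.75 on slide 1 and -0.32 on slide 2. Hbb-b1, a beta globin, was at 8.12, 7.52, 8.36 and 7.34 with vehicle and 7.49, 6.46, 7.09 and 7.70 with olaparib, a difference of -0.65 ± 0.32, and Alas2, which starts haem synthesis in red cells, differed by -0.84 ± 0.44. Globin probes can share sequence, so their values are not separate. Without olaparib replicate 2 the median of red blood cells was -0.34, with 5 of 19 above 0. Hba-a3, picked after its values were seen, was at -7.86 on that array and between 4.02 and 5.24 on the other 7, so its difference of -3.30 ± 2.91 says nothing of the treatment. All 5 platelet genes were below 0, with Itga2b, an integrin of platelets, at -0.54 ± 0.25. Endothelial genes were above 0 in 4 of 21, with a median of -0.28, and Cldn5, a tight junction protein, differed by -0.44 ± 0.26. Genes of T and NK cells were above 0 in 3 of 17, with a median of -0.32. Zap70, a kinase of the T cell receptor, did not overlap at -0.37 ± 0.24, and Il2rb differed by -0.78 ± 0.38. Without olaparib replicate 1 the median of T and NK cells was -0.08. Cd3e, Cd2 and Trac, defining T cell markers, did not pass the filter on any probe. The part of blood and vessel content in the other lists was not tested.

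Neighbouring tissue was uneven between slides. Oviduct and ciliated genes were above 0 in 6 of 20, with a median of -0.09, 0.15 on slide 1 and -0.36 on slide 2, and the median went from -0.98 to 0.96 with single arrays left out. Surface epithelium and mesothelium genes were above 0 in 12 of 14, with a median of 0.23, which was 0.53 on slide 1 and -0.09 on slide 2. Without vehicle replicate 1 the median of surface epithelium was -0.05. For adipocytes the median was 0.01, with 11 of 19 above 0, for stromal fibroblasts -0.01 (8 of 20) and for smooth muscle -0.15 (6 of 14). Macrophage genes had a median of -0.17 (5 of 18), B cell genes -0.03 (2 of 6), neutrophil genes 0.36 (2 of 4) and mast cell genes -0.29 (1 of 4). These immune medians have no settled sign: with single arrays left out they ranged from -0.35 to 0.08 for macrophages, -0.22 to 0.13 for B cells, -0.23 to 0.75 for neutrophils and -0.82 to 0.33 for mast cells. The macrophage median was -0.34 on slide 1 and 0.13 on slide 2.

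Stress, hormone and metabolic lists lay near the middle. Medians were 0.09 for interferon-stimulated genes (16 of 28 above 0), 0.12 for NRF2 oxidative stress genes (17 of 24), 0.12 for heat shock proteins (17 of 23), 0.14 for NAD synthesis and consumption (17 of 21), 0.03 for circadian clock genes (10 of 18) and -0.03 for glucocorticoid-responsive genes (7 of 16). Nfil3, a repressor of the clock, was the member of smallest p, at -0.55 ± 0.25 without overlap. Of drug transporters 3 of 13 were above 0, with a median of -0.13. Abcb1b, which encodes a P-glycoprotein that exports olaparib among other drugs, differed by -0.83 ± 0.50, with -0.96 from its other probe.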

How the data were processed

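RNA of 16 rat ovaries was measured on single-colour Agilent arrays, with 1 array per animal. The authors read the spots with Feature Extraction 10.7, per the submitters' processing notes, or 10.7.1.1, per the file headers. The processed, mean and background signals used are deposited intensity values, and per the file headers the processed signal is background-subtracted and not scaled between arrays. The deposited value table holds log2 values and correlated with the log2 of the processed signal at a Pearson r of 1 on each array, with a constant offset.

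Here the 75th percentile over non-control probes was subtracted on each array. Of 45598 probes, 26820 were well above background on at least 3 of 4 arrays of a group and were kept, and 12 were left out for outlier flags. Names came from a RefSeq gene table by transcript accession (21226 probes), current symbol (9326) or older symbol (321), or else from the file (5269). The probe of highest mean stood for a gene, giving 20227 genes, 14471 with a name other than a placeholder. Where a group had no array well above background, the fold is a bound against the lowest spot signal well above background on each dim array.

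Limma 3.58.1 (R 4.3.3) was used to fit 4 group means over all 16 arrays (12 residual and 2.43 prior degrees of freedom), with two-sided p adjusted over all genes. SE and 95% intervals are limma's. The smallest p that exact permutation allows with 4 arrays a group is 0.0286. The fit was tested on simulated data. Arrays 1 and 2 of each group were on slide 1 and arrays 3 and 4 on slide 2. Whether replicate numbers pair animals is not known here. Deviations from the group means correlated at 0.57, 0.57, 0.71 and 0.39 between vehicle and olaparib arrays of the same number. Arrays of different number on the same slide correlated at 0.51, 0.41, 0.36 and 0.30, and those on different slides below 0. On each slide the pairs of the same number correlated above those of different number. A pairing of animals by replicate number was not tested.

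Named genes are Brca1 and Parp1 to Parp3, the 12 of smallest p in each direction, the 6 of largest difference in each direction among genes without overlap that were well above background on all 8 arrays, and from each list up to 4 members of smallest p and the one of highest signal. Placeholder names were passed over, and others are stated as picked after their values were seen. The groups and gene lists were chosen with earlier results of these data known. The alternatives, 31 in all, changed the scaling, background correction, filter, probe choice, samples, blocks, spread or weights, or left out arrays. Some results for single genes are not reported here.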

Additional observations from a re-analysis of the deposited data

Results flagged for a closer look

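Among 150 groups of 4 arrays checked for a single array far from the other 3, over list scores and named genes, 5 were picked out. Chance alone picks out about 1 in 20 such groups. On BRCA1+/- olaparib replicate 4 the score of theca cells was -1.34, against 0.30 to 0.46 on the other 3 olaparib arrays. On the same array the score of the oocyte damage checkpoint and BCL2 family was -0.20, against 0 to 0.01. On BRCA1+/- olaparib replicate 2 the score of endothelium was 0.46, against -0.21 to -0.11. On BRCA1+/- vehicle replicate 3 the log2 signal of Parp2 was 0.20, against 0.95 to 0.97 on the other vehicle arrays. On BRCA1+/- vehicle replicate 1 the log2 signal of Nsmce2 was -6.06, against -5.45 to -5.38.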

How the results depend on the processing

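With the replicate block 487 genes had an unadjusted p under 0.05 in BRCA1+/- (main 237) and 1606 in wild-type (main 876), and limma called 0. The block changed no call. The count at an unadjusted p under 0.05 in BRCA1+/- was 142 after normexp background correction, 495 without a filter on dim probes (1328 in wild-type), 469 with the 8 BRCA1+/- arrays only, 366 with slide as a block and 620 with array weights (1374 in wild-type). In 3 alternatives chosen after seeing the data it was 1274 for the replicate block with the 8 arrays only, 702 for slide as a block with the 8 arrays only, and 193 without the 6 arrays of highest oviduct score. Genes whose arrays did not overlap numbered 143 after normexp, 379 without a filter and 5300 without those 6 arrays, which leaves 2 arrays a group, so that more genes separate. With any 1 of the 16 arrays left out, the count at an unadjusted p under 0.05 ranged from 143 to 455 in BRCA1+/- and from 358 to 2122 in wild-type, non-overlapping genes from 224 to 1033, called genes from 0 to 1 and called interactions from 0 to 0. The 35 genes followed kept their sign under each alternative that gave them a value (30 of the 31 for Tvp23a and Treml1), and 18 of the 39 list medians kept theirs under all 31. Most of these genes were picked by their values in these same data. Leaving out a wild-type array cannot change their difference, so a kept sign is no support. Some differences came near 0 under an alternative, down to 0.02 for Nsmce2, 0.06 for Tvp23a and 0.15 for Slc7a3. The cause of these shifts was not tested. The 4 arrays a group limit the precision, and Tbx20 and Treml1, with no olaparib array well above background, are known only as bounds.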
